A study of Mus musculus with 4 samples.

Results

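The Polycomb group genes described here were Ezh1, Ezh2, Eed, Suz12, Jarid2 and Phf19 of Polycomb repressive complex 2 (PRC2), and Rnf2, Ring1, Bmi1 and Cbx7 of Polycomb repressive complex 1 (PRC1). These 10 genes were chosen by name out of the 20599 gene symbols in the RNA-Seq tables, and all 10 had reads in every library and passed the filter on low counts. RNA-Seq was performed on 2 libraries of peritoneal B1a cells and 2 libraries of splenic follicular B2 cells, all from untreated wild-type C57BL/6 mice labelled as 4 weeks old. The study's methods give an older age for the B2 cells and name 2 control mice for each cell type, littermates of Dnmt3a-deficient mice whose libraries were not analysed here. B1a cells are long-lived, self-renewing B cells of the body cavities, and follicular B2 cells are the conventional recirculating B cells. Among other surface markers, B1a cells were gated on CD5 and IgM without CD23, and B2 cells on CD21 and high IgD with low IgM. The methods also give a range of sorted cell numbers for the B1a samples that reaches below the fixed number for the B2 samples. Cell type and tissue, and age and cell number where the methods hold, cannot be told apart in this design.

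Polycomb proteins keep genes silent through histone marks. PRC2 places methyl groups on H3K27 through its catalytic subunit EZH1 or EZH2, which needs EED and SUZ12, while JARID2 and PHF19 are accessory subunits that help recruit it. PRC1 attaches ubiquitin to histone H2A through RING1 or RNF2 paired with a PCGF protein such as BMI1, and in its canonical form a CBX protein such as CBX7 binds the H3K27 mark. In B cells EZH2 is known for its rise in dividing progenitors and germinal centre cells and EZH1 for its presence in resting cells, and the comparison of B1a with B2 cells asks which of these subunits each mature lineage transcribes.

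Total expected counts were 11578785 and 11558489 in B1a replicates 1 and 2 and 11032732 and 18588623 in B2 replicates 1 and 2. The B2 replicates resembled each other more closely than the B1a replicates did, with correlations of log2 normalized read counts (CPM, scaled to a common library size) across genes of 0.966 and 0.836, and the 4 correlations between B1a and B2 libraries ran from 0.788 to 0.858. Both groups expressed all 6 B cell markers examined. Of these, 4 were called, Cd79a and Ms4a1 as higher and Pax5 and Cd22 as lower in B1a cells. The 2 follicular markers were called lower and 2 of 3 B1a markers higher in B1a cells. Differences were tested by the quasi-likelihood method of edgeR, adjusted after Benjamini and Hochberg over 12078 genes, with a gene called at an adjusted p under 0.05, and log2 fold changes are B1a over B2. It called 512 genes (4.24%) as higher in B1a cells and 181 (1.5%) as lower.

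None of the 10 Polycomb group genes passed this test, beside 5.74% of all genes tested. At an unadjusted p under 0.05 stood 2 of the 10, Ezh1 and Rnf2, beside 20.9% of all genes. DESeq2 called 1 of 10, Ezh1, beside 13.5% of genes, and limma-voom called 0 of 10 beside 7.26%. Weighted by cell type, limma-voom called 1 of 10, again Ezh1, beside 11.7%. The B1a and B2 libraries did not overlap in 5 of the 10 genes (50%), a share close to that over all genes (54.3%). Ezh1 was the 1 gene with both B1a libraries above both B2 libraries (25.3% of all genes), and Eed, Phf19, Rnf2 and Cbx7 had both B1a libraries below (29% of all genes). Over the 10 genes the median log2 fold change was -0.31, beside -0.03 over all genes tested. With 2 libraries per group and a biological coefficient of variation of 0.507, the intervals given with each gene show which sizes of difference could not be told from none. In sorted bulk cells, fewer cells of a type and less RNA per cell cannot be told apart.

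**Figure D1:**
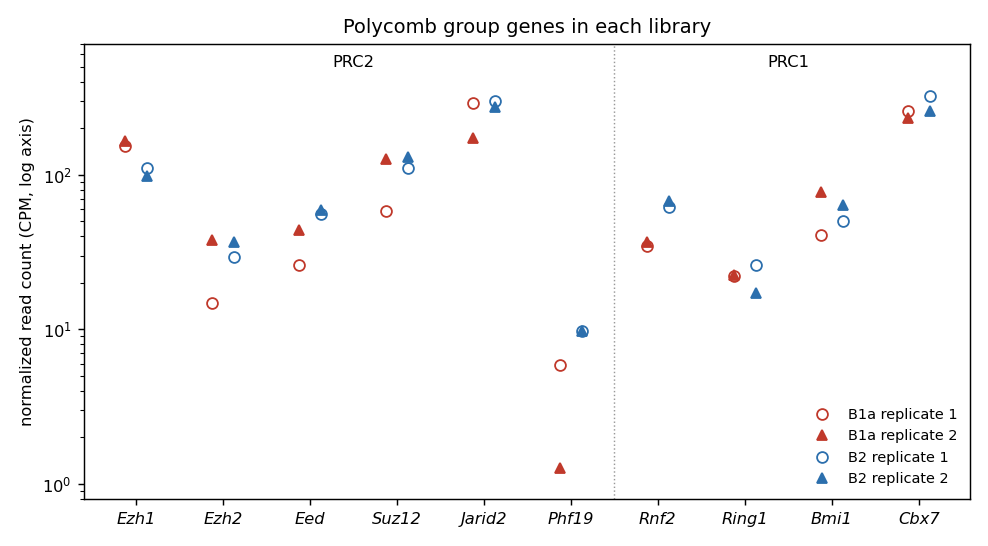
Normalized read count (CPM, log axis) of each Polycomb group gene in each library, with B1a cells in red, B2 cells in blue, open circles for replicate 1 and filled triangles for replicate 2. Ezh1 in B1a cells (154 and 165 CPM) lies above B2 cells (111 and 97.8 CPM), Rnf2 lies below (34.7 and 36.4 against 61.6 and 67.1 CPM), and the B1a replicates stand apart in Ezh2, Suz12 and Phf19.

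Among the PRC2 methyltransferases, Ezh1 and Ezh2 gave different pictures. Ezh1 (chr11:101191115-101226463, minus strand, GRCm38.p6), the paralogue linked to non-dividing cells, had 154 and 165 CPM in the B1a libraries and 111 and 97.8 CPM in the B2 libraries. Every B1a library was above every B2 library, and replicates of either cell type differed by no more than 1.13-fold. The log2 fold change was 0.61 ± 0.16 (SE, n = 2 per group), with a 95% interval of 0.22 to 1.00 and an edgeR adjusted p of 0.0966. Over 11 other ways of processing, its adjusted p ran from 0.0324 by DESeq2 to 0.261 on log2(TPM + 1), where TPM is a level per length and per library, and it passed 0.05 in 2 of them. The TPM scale itself placed the median of all genes lower by 0.25 on the log2 scale than the main scale did, and Ezh1 stood at 0.37 there.

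Ezh2 (chr6:47530274-47595270, minus strand), the methyltransferase of dividing B cells, had 14.9 and 37.9 CPM in B1a cells and 29.3 and 36.6 CPM in B2 cells. B1a replicate 1 was the low library, while B1a replicate 2 lay just above both B2 libraries. The log2 fold change of -0.32 ± 0.50 had an interval of -1.55 to 0.90 (edgeR adjusted p = 0.798), which reaches well to either side of 0. It was 0.19 without B1a replicate 1 and -1.15 without B1a replicate 2.

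The deposited Ezh2 entry joined 2 RefSeq transcripts, matched here to their GENCODE models, which differ at 2 coding segments. The longer form keeps 27 more bases at the 3' end of exon 3 of 20 (chr6:47576536-47576562, GRCm38, minus strand), and the shorter form keeps 15 more bases at the 3' end of exon 8 (chr6:47551717-47551731, minus strand). These junctions are shown because the expected counts of Ezh2 were divided between both forms by the reads that reach them, and the capitals mark the bases that only one form keeps, between flanks of 30 bases.
Longer form at exon 3: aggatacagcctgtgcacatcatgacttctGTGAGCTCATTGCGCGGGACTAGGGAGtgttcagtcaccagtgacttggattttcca
Shorter form at exon 3: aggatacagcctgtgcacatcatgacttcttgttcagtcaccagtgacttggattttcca
Shorter form at exon 8: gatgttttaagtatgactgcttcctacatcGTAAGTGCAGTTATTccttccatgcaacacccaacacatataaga
Longer form at exon 8: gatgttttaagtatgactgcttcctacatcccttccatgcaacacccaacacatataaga
The lengths of both forms differ by 12 bases, and the mean length that RSEM, the quantification program, gave the entry showed how it divided the counts. The mean length was 2640 bases in B1a replicate 1 (166 expected counts) and 2652 bases in B1a replicate 2 (421 expected counts), the lowest and the highest of the 4 libraries. In B2 cells it was 2651 bases in replicate 1 (338 expected counts) and 2650 bases in replicate 2 (699.8 expected counts). The lowest of these mean lengths was taken as that of the shorter form, and 12 bases more as that of the longer form. The GENCODE models themselves are 2775 and 2787 bases long, so that only their difference was used. On this scale, the form with the exon 3 segment held 0% and 100% of Ezh2 transcripts in B1a replicates 1 and 2. In B2 replicates 1 and 2 it held 92.3% and 83.6%. The B1a replicates thus stood at opposite ends of the scale so set, and B2 libraries lay between them. How many reads reached these segments is not recorded in the gene tables, so no interval or test is given.

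Of the other core PRC2 subunits, Eed and Suz12 were lower in B1a replicate 1 than in any other library. So was Rbbp4 (53.5 CPM there), whereas Rbbp7 (86.7 CPM there) was above both B2 libraries (75.7 and 84.1 CPM). Eed (chr7:89954654-89980976, minus strand), the subunit that reads the finished mark, had 26.0 and 43.8 CPM in B1a cells and 55.9 and 59.0 CPM in B2 cells. Both B1a libraries were below both B2 libraries, with a log2 fold change of -0.72 ± 0.32, an interval of -1.52 to 0.08 and an edgeR adjusted p of 0.285. It was -0.39 without B1a replicate 1 and -1.15 without B1a replicate 2. Suz12 (chr11:79993106-80034123, plus strand), the scaffold of the complex, had 57.8 and 126 CPM in B1a cells and 111 and 130 CPM in B2 cells. The B1a libraries overlapped the B2 libraries, and the log2 fold change was -0.39 ± 0.37 (-1.29 to 0.51, edgeR adjusted p = 0.631). Without B1a replicate 1 it was 0.06, and without B1a replicate 2 it was -1.06. In TPM, a level per length, Eed and Suz12 together gave 61.3 and 116 in B1a cells and 147 and 160 in B2 cells, whereas Ezh1 and Ezh2 together gave 99.5 and 123 in B1a cells and 104 and 101 in B2 cells. The TPM scale made B1a cells look lower, with a shift of -0.25 in the median log2 fold change of all genes. On log2(TPM + 1) the log2 fold change was -0.99 for Eed and -0.72 for Suz12.

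The accessory subunits Jarid2 and Phf19 went the other way between the B1a replicates. Jarid2 (chr13:44730774-44921643, plus strand), which binds chromatin and helps to recruit PRC2, had 292 and 172 CPM in B1a cells and 298 and 273 CPM in B2 cells. B1a replicate 2 was the low library, the log2 fold change was -0.30 ± 0.25 (-0.92 to 0.32, edgeR adjusted p = 0.589), and it became 0.03 without that library. Its entry joined 3 transcripts, and the mean length was 5839 bases in B1a replicate 1 against 5991 to 5996 bases in the other 3 libraries. Phf19 (chr2:34893752-34914353, minus strand), a Polycomb-like protein that reads methylated H3K36, had 5.92 and 1.26 CPM in B1a cells, from 66 and 14 expected counts, and 9.72 and 9.78 CPM in B2 cells. The B1a libraries were both below the B2 libraries but 4.70-fold apart, and the log2 fold change of -1.44 ± 1.03 had the widest interval of the 10 genes (-3.98 to 1.10, edgeR adjusted p = 0.515). It was -2.95 without B1a replicate 1 and -0.72 without B1a replicate 2.

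Of the PRC1 ubiquitin ligases, Rnf2 (chr1:151469398-151500991, minus strand), which encodes RING1B, had 34.7 and 36.4 CPM in B1a cells and 61.6 and 67.1 CPM in B2 cells. The libraries of the cell types did not overlap, and replicates differed by no more than 1.09-fold. The log2 fold change was -0.86 ± 0.23 (SE, n = 2 per group), with an interval of -1.43 to -0.28 and an edgeR adjusted p of 0.109. It did not pass 0.05 in any of 11 other ways of processing, which gave adjusted p from 0.0628 to 0.116. It stayed between -0.80 and -0.92 with any 1 library left out. The edgeR adjusted p was 0.00270 without B1a replicate 1 and 5.6e-04 without B1a replicate 2, where the spread came from the B2 libraries alone, and 0.759 without B2 replicate 1 and 0.9999 without B2 replicate 2, where it came from the B1a libraries alone.

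Its paralogue Ring1 (chr17:34020792-34024680, minus strand), which encodes RING1A, had 22.1 and 22.6 CPM in B1a cells and 26.2 and 17.3 CPM in B2 cells. The B1a libraries lay between the B2 libraries, and the log2 fold change was 0.04 ± 0.40 (-0.95 to 1.03, edgeR adjusted p = 0.971). The tables had 4 entries of the same Ring1 transcript, of which 2 held equal expected counts (123 each in B1a replicate 1) and the others held 0 in every library, and these were summed here.

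Bmi1 (chr2:18677018-18686629, plus strand), a PCGF partner of the ligases in canonical PRC1, had 40.7 and 77.1 CPM in B1a cells and 49.8 and 63.4 CPM in B2 cells. The B1a libraries lay on either side of the B2 libraries, and the log2 fold change was 0.06 ± 0.36 (-0.82 to 0.93, edgeR adjusted p = 0.954), with the opposite sign under 6 of 11 other ways of processing. Cbx7 (chr15:79915804-79971143, minus strand), the reader of the H3K27 mark, had 257 and 233 CPM in B1a cells and 323 and 259 CPM in B2 cells. Both B1a libraries were below both B2 libraries, by a small margin at the nearest pair, and the log2 fold change was -0.25 ± 0.16 (-0.63 to 0.14, edgeR adjusted p = 0.457). It was -0.08 without B2 replicate 1 and -0.40 without B2 replicate 2.

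**Figure D2:**
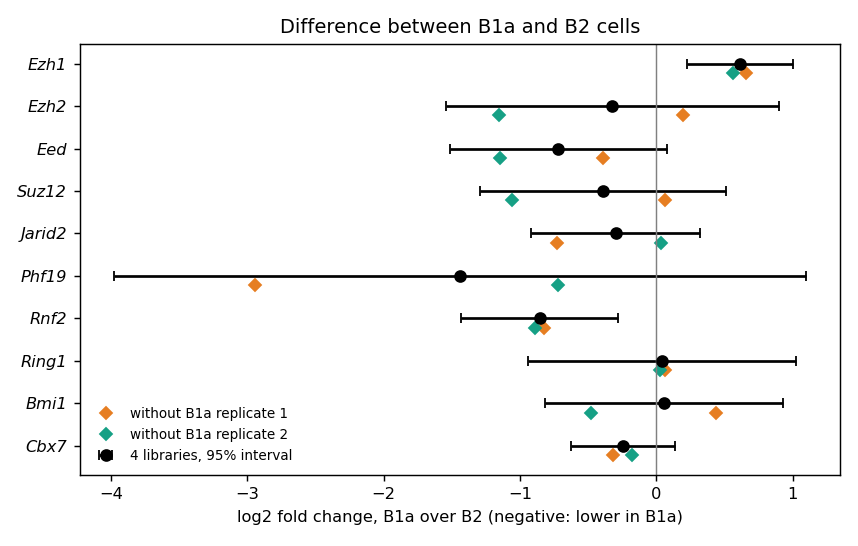
Log2 fold change (B1a over B2, horizontal axis) of each Polycomb group gene from all 4 libraries (black, with its 95% interval) and with 1 B1a library left out (orange, without replicate 1, and green, without replicate 2). The intervals of Ezh1 (0.22 to 1.00) and Rnf2 (-1.43 to -0.28) do not reach 0, and the values of Ezh2, Suz12, Jarid2 and Bmi1 lie on both sides of 0 depending on which B1a library is used.

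The B1a replicates differed from each other in these genes more than the B2 replicates did. In B1a cells 6 of the 10 genes differed by over 1.5-fold between replicates, beside 46.3% of all genes, and in B2 cells 1 of 10 did, beside 15.9%. The median absolute log2 difference between replicates (with 0.5 CPM added) was 0.75 for the 10 genes and 0.52 for all genes in B1a cells, and 0.20 and 0.21 in B2 cells. Ezh2 (2.54-fold), Suz12 (2.18-fold), Bmi1 (1.89-fold) and Eed (1.68-fold) were higher in B1a replicate 2, and Jarid2 (1.70-fold) and Phf19 (4.70-fold) were higher in replicate 1. The ratio of replicate 2 to replicate 1 had 95% counting intervals of 2.12 to 3.06 for Ezh2, 1.98 to 2.40 for Suz12, 0.557 to 0.624 for Jarid2 and 0.110 to 0.383 for Phf19, which lie away from 1. These exact binomial intervals cover counting error only, since reads were not marked by molecule. Ezh1, Rnf2, Ring1 and Cbx7 differed by 1.02-fold to 1.11-fold between the same B1a libraries.

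**Figure D3:**
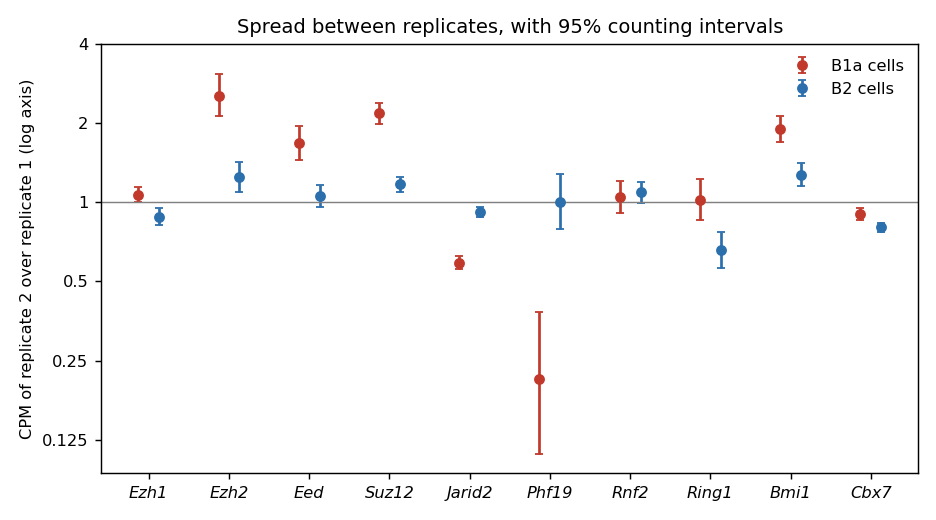
Ratio of replicate 2 to replicate 1 in CPM (vertical log axis) for each Polycomb group gene, in B1a cells (red) and B2 cells (blue), with 95% counting intervals as bars. In B1a cells the ratios run from 0.213 for Phf19 to 2.54 for Ezh2, and in B2 cells from 0.659 for Ring1 to 1.27 for Bmi1.

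The calls changed when a B1a library was left out and its lone partner was assumed to vary like the B2 cells. Without B1a replicate 1, edgeR called 4 of the 10 genes, Ezh1 as higher and Jarid2, Phf19 and Rnf2 as lower in B1a cells, beside 31% of all genes. Without B1a replicate 2 it called 5 of 10, Ezh1 as higher and Ezh2, Eed, Suz12 and Rnf2 as lower, beside 48.9%. Ezh1 and Rnf2 were called in both cases and in the same direction. Without B2 replicate 1 or B2 replicate 2, the lone B2 library was assumed to vary like the B1a cells. In either case edgeR called 0 of the 10 genes, beside 4.24% and 4.45% of all genes.

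Signs of other cells also moved with the B1a libraries. The summed level of 10 macrophage markers was 224 and 253 CPM in B1a cells and 64.1 and 73.7 CPM in B2 cells, with 1 of the 8 tested called higher (Lyz2). Of these 8, 6 were higher in B1a cells without overlap, among them Adgre1 (27.7 and 39.03 against 8.24 and 11.9 CPM) and C1qa (24.4 and 17.4 against 4.597 and 6.06 CPM), while Csf1r and Mertk overlapped and Fcgr1 had 0 counts in both B1a libraries. The 5 erythroid markers summed to 78.8 CPM in B1a replicate 1 and 504 CPM in B1a replicate 2, against 36.1 and 80.8 CPM in B2 cells, with 1 of 5 called higher. The 5 mast cell markers summed to 46.1 and 16.5 CPM in B1a cells and 1.47 and 0.941 CPM in B2 cells, with 1 of 4 tested called higher, and 7 T cell markers summed to 51.5 and 26.4 CPM against 42.3 and 45.3 CPM, with none called (2 at an unadjusted p under 0.05) and Cd4 and Cd28 at 0 counts in both B1a libraries. The 4 neutrophil markers found were at 0 in both B1a libraries and summed to 2.34 and 8.42 CPM in B2 cells. The part of these cells in the values of the Polycomb group genes was not tested. The 5 plasma cell markers summed to 438 and 638 CPM in B1a cells and 343 and 385 CPM in B2 cells, with 1 of 5 called (Prdm1, described with the Polycomb targets below). Irf4, which was not called, made up most of these sums (355 and 530, 262 and 274 CPM). The other 3 had negative log2 fold changes and were not called, at -0.21 for Xbp1, -2.22 for Sdc1 and -0.11 for Jchain. The 17 proliferation genes, with which Ezh2 is known to move, summed to 1574 and 1351 CPM in B1a cells and 1428 and 1384 CPM in B2 cells, with only Mki67 of the 17 called (higher in B1a cells). Tyms made up most of these sums (945 and 817, 985 and 910 CPM), so that they say little about the other genes. Without overlap, 5 of the 17 were higher and 4 lower in B1a cells, together 52.9% beside 54.3% of all genes. The part of proliferation in the Ezh2 values was not tested. Of 2 germinal centre genes tested, Bcl6 was called lower in B1a cells.

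The levels of the 10 genes were next compared with each other in TPM. Cbx7 was the most abundant in both cell types, at 198 ± 17.5 TPM in B1a cells and 278 ± 46.2 TPM in B2 cells (SD, n = 2), above 96.6% and 97.5% of all genes. Jarid2 followed at 91.2 ± 36.4 and 130 ± 9.53 TPM, and its B1a libraries overlapped those of Ezh1 (87.9 ± 2.46 TPM), the third in B1a cells. Ezh1 was lower in the order of B2 cells (68.0 ± 6.75 TPM), where Eed (78.0 ± 2.10 TPM) and Suz12 (75.5 ± 7.52 TPM) came before it, with libraries of Suz12 but not of Eed that overlapped those of Ezh1. Below Ezh1, B1a cells had Suz12 (48.5 ± 24.7 TPM), Eed (39.9 ± 13.7 TPM), Bmi1 (38.0 ± 15.98 TPM) and Rnf2 (27.4 ± 0.453 TPM), each overlapping the next, and then Ring1 (25.9 ± 0.0283 TPM) and Ezh2 (23.2 ± 13.9 TPM), which overlapped each other. In B2 cells Rnf2 (58.7 ± 2.92 TPM), Bmi1 (43.2 ± 6.87 TPM) and Ezh2 (34.4 ± 4.999 TPM) came in that order without overlap between neighbours, and Ring1 (29.9 ± 9.02 TPM) overlapped Ezh2. Phf19 was last in both, at 2.25 ± 2.09 and 7.16 ± 0.0495 TPM, with no overlap with the gene before it.

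Subunits that take the same place in a complex were compared as shares of their summed TPM within a library, a measure that library size does not touch. Ezh2 made up 13.4% and 26.9% of Ezh1 plus Ezh2 in B1a cells and 29.8% and 37.5% in B2 cells, so that Ezh1 was the larger part in all 4 libraries. The difference was -13.4 percentage points (20.2 ± 9.55% against 33.6 ± 5.46%, SD, n = 2), the libraries did not overlap, and an exact two-sided permutation test gave p = 0.333, the smallest that 2 against 2 libraries allow. Rnf2 made up 51.1% and 51.7% of Rnf2 plus Ring1 in B1a cells and 60.9% and 72.1% in B2 cells, a difference of -15.1 percentage points without overlap (exact permutation p = 0.333). At the level of RNA, Rnf2 and Ring1 thus had nearly equal shares in the B1a libraries, and Rnf2 had the larger share in the B2 libraries. Their summed levels were 53.1 and 53.7 TPM in B1a cells and 92.9 and 84.2 TPM in B2 cells. These sums, unlike the shares, carry the shift of the TPM scale given with Ezh1.

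Among the 6 Pcgf genes, Bmi1 took 17.5% and 38.3% in B1a cells and 29.5% and 35.0% in B2 cells, and these libraries overlapped (-4.33 percentage points, exact permutation p = 1.0). Pcgf3, of a variant PRC1, took 40.8% and 26.0% in B1a cells and 22.3% and 21.0% in B2 cells, and Pcgf5, of another variant complex, took 3.49% and 4.06% against 14.4% and 15.6%. Pcgf6 took 12.9% to 21.8% and Pcgf1 8.38% to 17.9% over all libraries, and Pcgf2, the closest relative of Bmi1, took at most 0.824%. In log2 fold change Pcgf5 was at -1.69 ± 0.81 (edgeR adjusted p = 0.313) and Pcgf3 at 0.96 ± 0.33 (edgeR adjusted p = 0.177), so that neither was called.

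Of the Cbx genes that can take the place of Cbx7, Cbx6 had 41.1 and 45.9 TPM in B1a cells and 28.3 and 30.8 TPM in B2 cells, and Cbx8 had 16.5 and 2.92 TPM against 13.9 and 12.0 TPM. Both were far below Cbx7 (186 to 311 TPM) in every library. Cbx2 had 0 counts in both B1a libraries and 3.04 and 3.35 CPM in the B2 libraries. Taking 3 counts in a library (a mean of 0.269 CPM) as the floor that a count of 0 allows, the B2 mean lay 11.8-fold above that floor. This floor covers counting error only, and Cbx2 was named for its counts of 0 in B1a cells. Fewer genes reached 1 count in the B1a libraries (11290 and 12456) than in the B2 libraries (14223 and 12934). The difference in Cbx2 was not called by edgeR (adjusted p = 0.128), and DESeq2 called it, as 1 of 10 alternatives.

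**Figure D4:**
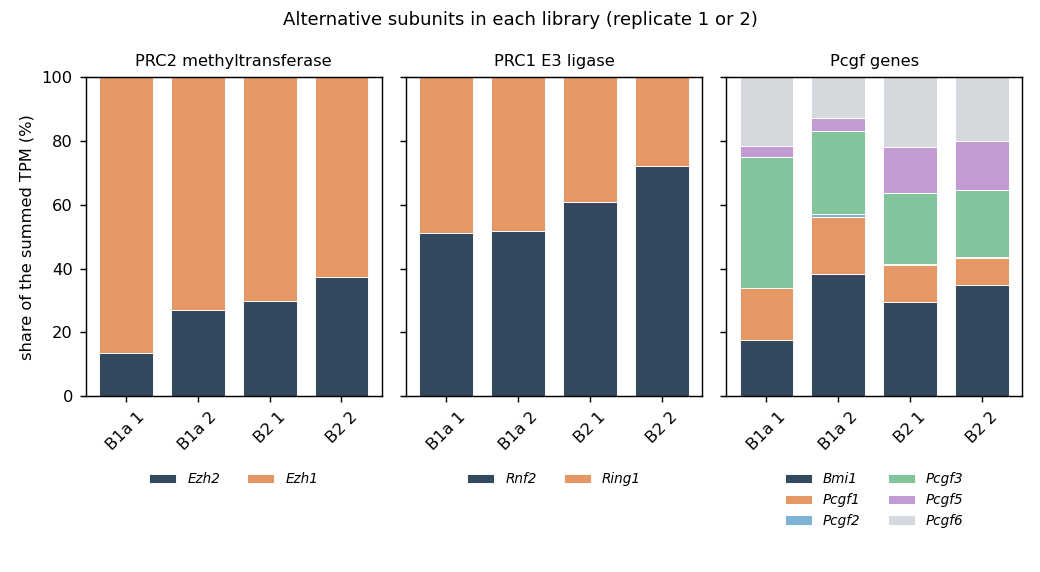
Share of the summed TPM (%, vertical axis) that each alternative subunit takes in each library, as stacked bars for the PRC2 methyltransferases, the PRC1 ligases and the Pcgf genes, with Ezh2, Rnf2 and Bmi1 at the bottom. Ezh2 takes 13.4% and 26.9% in B1a cells and 29.8% and 37.5% in B2 cells, Rnf2 takes 51.1% and 51.7% against 60.9% and 72.1%, and the Bmi1 shares of the cell types overlap (17.5% and 38.3% against 29.5% and 35.0%).

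The start sites of the Polycomb group genes were read from RefSeq (GRCm38.p6), where all 10 matched in 11 windows, Jarid2 having 2 windows. Each window runs from 250 bases before to 50 bases after an annotated start site. For Ezh2, Phf19, Cbx7 and the downstream Jarid2 window, this site lay inside the gene bounds given above, not at their 5' end. The windows of Phf19 and Cbx7 lay wholly inside those bounds. All 11 were rich in CpG, with 54.7% to 74.3% GC and 0.708 to 1.09 times the CpG number that base composition predicts, where the medians over 32851 windows were 52.7% and 0.384. Letters of the kind that E2F factors of the cell cycle bind were searched on both strands, namely TTCCCGC, its variant TTCGCGC, the further variant TTGCCGC, and lastly TTGGCGC. They stood in 3 of 11 windows, those of Ezh2, Suz12 and Phf19, beside 9.57% of all windows. That share was not matched for CpG content. Each of the strings contains CG, and only 28.4% of all windows had a CpG ratio above 0.708, the lowest of the 11. Counted from the start site of its own window, the match began at base 4 in Ezh2, at base -218 in Suz12 and at base -208 in Phf19. In Phf19 it lies on the other strand. These windows are shown, with the match in capitals, because these are also the 3 genes with the widest spread between B1a replicates, with Phf19 spread in the opposite direction to Ezh2 and Suz12, and the window of Ezh1 is shown as that of the paralogue of Ezh2, which lacks the letters. Bmi1, Jarid2 and Eed lack the letters too and also differed by over 1.5-fold between the B1a replicates. Each is written on the strand of its gene, at chr6:47594981-47595280 (Ezh2, minus), chr11:79992856-79993155 (Suz12, plus), chr2:34913927-34914226 (Phf19, minus) and chr11:101226414-101226713 (Ezh1, minus).
Ezh2: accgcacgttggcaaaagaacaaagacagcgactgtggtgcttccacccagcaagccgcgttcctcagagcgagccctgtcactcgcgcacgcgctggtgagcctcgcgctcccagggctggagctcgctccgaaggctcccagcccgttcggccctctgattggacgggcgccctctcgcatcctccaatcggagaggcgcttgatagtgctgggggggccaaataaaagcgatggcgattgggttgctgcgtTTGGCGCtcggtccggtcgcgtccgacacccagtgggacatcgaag
Suz12: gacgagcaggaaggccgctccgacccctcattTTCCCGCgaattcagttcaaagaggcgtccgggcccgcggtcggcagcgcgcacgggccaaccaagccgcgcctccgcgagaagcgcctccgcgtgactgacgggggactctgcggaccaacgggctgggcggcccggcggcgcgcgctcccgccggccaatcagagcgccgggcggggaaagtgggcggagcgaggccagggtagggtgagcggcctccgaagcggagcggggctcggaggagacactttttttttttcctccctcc
Phf19: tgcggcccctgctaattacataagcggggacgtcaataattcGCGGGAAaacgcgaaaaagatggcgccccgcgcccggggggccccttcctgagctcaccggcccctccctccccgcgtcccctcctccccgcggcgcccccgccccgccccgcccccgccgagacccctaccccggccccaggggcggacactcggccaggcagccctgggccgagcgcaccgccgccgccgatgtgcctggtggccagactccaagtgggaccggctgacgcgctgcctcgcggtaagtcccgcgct
Ezh1: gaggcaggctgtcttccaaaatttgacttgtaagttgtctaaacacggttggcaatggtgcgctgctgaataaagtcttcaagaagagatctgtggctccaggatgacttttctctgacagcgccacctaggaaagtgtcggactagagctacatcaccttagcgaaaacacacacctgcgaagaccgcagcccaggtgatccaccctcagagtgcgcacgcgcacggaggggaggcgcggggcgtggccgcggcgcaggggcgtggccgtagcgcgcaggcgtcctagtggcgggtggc
The link of the letters with the spread was seen in the data, was not tested, and describes letters only.

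The other genes of the Polycomb pathway came from a list of 50, of which 45 could be tested and 0 were called by edgeR, beside 5.74% of all genes. At an unadjusted p under 0.05 stood 15 of the 45 (20.9% of all genes), DESeq2 called 7 (13.5%), limma-voom 2 (7.26%), and limma-voom weighted by cell type 7 (11.7%). Both B1a libraries were above both B2 libraries in 11 of the 45 and below them in 15, together 57.8% beside 54.3% of all genes, and the median log2 fold change was -0.08. Ezhip, Scml2 and Asxl3 had 0 counts in all libraries, and Pcgf2 and Auts2 did not pass the filter on low counts. By the mean over both cell types, the highest levels per length were those of Ogt (329 and 288 TPM in B1a cells, 264 and 271 TPM in B2 cells), Fbrs (169 and 146, 184 and 165 TPM) and Usp7 (148 and 134, 163 and 197 TPM). Within B1a cells Phf1, a Polycomb-like PRC2 subunit, was above Usp7 (185 and 127 TPM). Ogt encodes the O-GlcNAc transferase found with the H2A deubiquitinase, and Fbrs and Usp7 belong to variant PRC1. Ogt had a log2 fold change of 0.44 ± 0.11 (edgeR adjusted p = 0.0950), Fbrs one of 0.09 ± 0.15 (edgeR adjusted p = 0.813) and Usp7 one of -0.11 ± 0.15 (edgeR adjusted p = 0.760).

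By their lowest adjusted p, and chosen after their values were seen, 5 further genes stood nearest to a call. Asxl1, the partner of the H2A deubiquitinase BAP1, had 225 and 244 CPM in B1a cells and 150 and 151 CPM in B2 cells. The change was 0.64 ± 0.13 on the log2 scale (edgeR adjusted p = 0.05499), and 6 of 11 alternatives called it, with adjusted p from 0.00325 to 0.232. Epop, a subunit of the form of PRC2 without JARID2, had 23.2 and 16.7 CPM in B1a cells and 3.12 and 3.19 CPM in B2 cells. The change of 2.66 ± 0.61 on the log2 scale (edgeR adjusted p = 0.0700) was the highest of the 45 and was called in 5 of 11 alternatives. Bcorl1, a corepressor of variant PRC1, had 51.8 and 32.4 CPM against 9.19 and 14.4 CPM, with a log2 fold change of 1.83 ± 0.43 (edgeR adjusted p = 0.0751), and was also called in 5 of 11. Cbx6 had 95.6 and 110 CPM against 56.0 and 61.9 CPM, with a log2 fold change of 0.80 ± 0.20 (edgeR adjusted p = 0.0870). Mtf2, a Polycomb-like relative of Phf19, had 40.2 and 48.4 CPM against 84.3 and 74.3 CPM, with a log2 fold change of -0.84 ± 0.23 (edgeR adjusted p = 0.110). In each of these 5 genes the libraries of the cell types did not overlap, which choosing them by adjusted p made likely. Over all 45 genes 57.8% did not overlap, beside 54.3% of all genes tested.

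**Figure D5:**
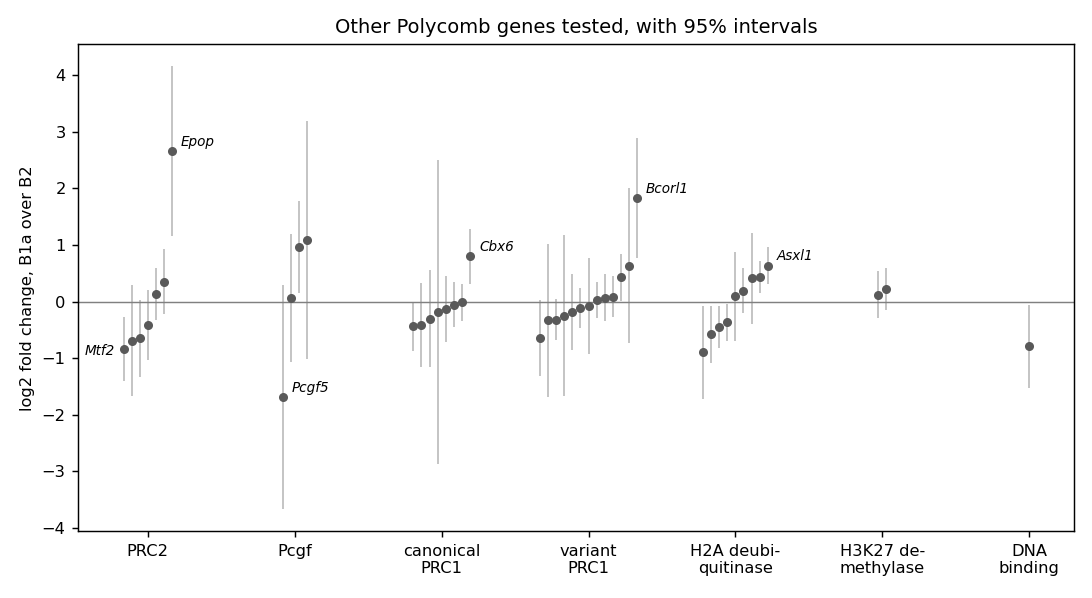
Log2 fold change (B1a over B2, vertical axis) with 95% intervals of the other Polycomb genes tested, grouped by complex or role and ordered by value within each group, without Cbx2, which had 0 counts in both B1a libraries. Epop (2.66), Bcorl1 (1.83), Cbx6 (0.80) and Asxl1 (0.64) lie above 0 and Mtf2 (-0.84) below it with intervals that do not reach 0, and Pcgf5 (-1.69) has an interval that does.

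Of the genes known as Polycomb targets, Cdkn2a and most Hox genes were silent or nearly so. Cdkn2a, the classical target that restrains division, had 0 counts in all 4 libraries, which allows up to 0.157 to 0.270 CPM, depending on the library, at a floor of 3 counts. Of 39 Hox genes, 26 had 0 counts in every library, 31 had at most 3 counts in any library, and 3 could be tested, of which 0 were called by edgeR (0 at an unadjusted p under 0.05). Prdm1, the regulator of plasma cell fate, was called higher in B1a cells, with 22.4 and 36.2 CPM against 4.16 and 4.13 CPM and a log2 fold change of 2.82 ± 0.51 (edgeR adjusted p = 0.0346). Cdkn1a had 3.85 and 7.46 CPM in B1a cells and 1.04 and 1.10 CPM in B2 cells, without overlap, at a log2 fold change of 2.39 ± 1.23 (edgeR adjusted p = 0.346). Cdkn2b was near the floor, with 11 and 14 expected counts in B1a cells and 3 and 0 in B2 cells (edgeR adjusted p = 0.498). All 3 targets tested outside the Hox genes were thus higher in B1a cells without overlap, beside 25.3% of all genes.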

How the data were processed

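RNA-Seq of 2 peritoneal B1a and 2 splenic follicular B2 libraries was used. Per the labels, the authors quantified reads with RSEM (1.2.29, another version being named in the methods) on mm10 with RefSeq genes. The deposited tables hold expected counts, TPM, FPKM, effective lengths and a posterior standard deviation of each count, a signal of its uncertainty. The methods name a stranded kit, and the strand setting of the counting is not given in the sources used here. Here expected counts were summed by symbol (21970 entries, 20599 symbols), rounded and tested in edgeR 4.0.16 (R 4.3.3, TMM, filterByExpr, no covariate), the deposited TPM were used for levels between genes, and FPKM and posterior standard deviations were only inspected. The study's methods name EBSeq, which was not run. Alternatives were RLE and upper quartile factors, DESeq2 1.42.0, limma 3.58.1 (voom, and log2(TPM + 1) or log2(TPM + 0.1) with a mean TPM of at least 1), other filters, unsummed entries, a replicate block and leaving out each library. The fit was tested on simulated data. Members, lists and tests were chosen with earlier results of these data known. All 10 members were named, and of other Polycomb genes those called, the 3 highest in TPM, those in a share and those at 0 in 1 group, except some not reported here. Library totals of 11032732 to 18588623 expected counts give floors of 0.157 to 0.270 normalized CPM at 3 counts.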

Additional observations from a re-analysis of the deposited data

How the results depend on the processing

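Over all genes, edgeR called 693 (512 higher in B1a cells, 181 higher in B2 cells). DESeq2 called 1562 (1011 and 551), limma-voom weighted by cell type 1415 (1054 and 361), no filter beyond 1 count in any library 1141 (779 and 362), limma-voom 278 and at least 10 counts in every library 279 higher in B2 cells, log2(TPM + 1) 266 higher in B1a cells, and log2(TPM + 0.1) 359 (196 higher in B1a cells). Leaving out 1 library gave 539 to 6143 (394 to 2787 and 144 to 3356). Of the 10 Polycomb group genes, DESeq2 and limma-voom with weights called 1 (Ezh1, higher in B1a cells), and leaving out 1 library gave 0 to 5 (0 to 1 higher in B1a cells, 0 to 4 higher in B2 cells). Of the other Polycomb genes, DESeq2 called 7 (5 and 2), limma-voom 2 (both higher in B1a cells), limma-voom with weights 7 (6 and 1), both other filters 3 (all higher in B1a cells), and leaving out 1 library gave 0 to 22 (0 to 11 and 0 to 12).

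No pairing of samples by replicate number was seen: the deviations of same-numbered samples from their group means had a correlation of -0.0347. With 2 libraries per group, this value cannot exclude a pairing. With the replicate block, edgeR called 1481 genes (889 and 592), 0 of the 10 Polycomb group genes and 8 other Polycomb genes (5 and 3), and Bmi1 stood at -0.0018.

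In sign, Ring1 reversed with upper quartile factors (-0.031), log2(TPM + 1) (-0.17) and log2(TPM + 0.1) (-0.17), and Bmi1 with upper quartile factors (-0.0096), limma-voom (-0.041, weighted -0.040), log2(TPM + 1) (-0.24) and log2(TPM + 0.1) (-0.24). With 1 library left out, log2 fold changes ran from -1.15 to 0.19 for Ezh2, -1.06 to 0.060 for Suz12, -0.73 to 0.031 for Jarid2, -0.24 to 0.37 for Ring1 and -0.48 to 0.44 for Bmi1, where the sign turned without B1a replicate 1 (Ezh2, Suz12), B1a replicate 2 (Jarid2, Bmi1), B2 replicate 1 (Bmi1, -0.11) or B2 replicate 2 (Ring1). The causes were not tested. With 1 library left out, the share differences ran from -20.2 to -6.70 percentage points for Ezh2, -20.7 to -9.54 for Rnf2 and -14.8 to 6.10 for Bmi1. The planned share of Cbx7, with its alternatives, is not reported here. With 2 libraries per group and a wide spread in B1a cells, a p above the threshold does not show that a gene was alike in both cell types.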
